A study of Mus musculus with 35 samples.

Results

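The endoplasmic reticulum (ER) stress genes Hspa5, Hsp90b1, Calr, Dnajb9, Xbp1, Atf4 and Ddit3 were followed through the perigonadal fat of lean and obese mice. They were taken as every probe set that the platform annotation gives to 1 of these 7 genes alone, which gave 8 probe sets, 1 for each gene and 2 for Dnajb9, among 12422 probe sets that carry 8251 gene symbols. The members and the gene lists used here were chosen with earlier results of these data known.

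The ER is where secreted and membrane proteins fold, and fat cells, which secrete adiponectin, leptin and lipoprotein lipase, load it heavily. When unfolded protein builds up there, 3 sensors in its membrane respond: IRE1 splices the mRNA of Xbp1, PERK slows translation and lets Atf4 protein be made, and ATF6 is cut to release a transcription factor. These factors then raise the chaperones and, under lasting stress, Ddit3. Obesity is known for markers of this response in liver and fat. These arrays measure the amount of each mRNA. They do not measure Xbp1 splicing, phosphorylation of the sensors, or protein.

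RNA of 35 samples was hybridised to Affymetrix murine U74Av2 arrays, 1 sample an array. All mice were C57BL/6J, 22 weeks old, and the labels do not say whether a sample was 1 animal or a pool, so p-values measure the spread between these samples. The females were lean controls (n = 4), obese Ay/+ mice that carry the yellow allele of agouti (n = 4), Ay/+ mice given pioglitazone (n = 3), ob/ob mice, which lack working leptin (n = 4), ob/ob mice given pioglitazone (n = 3) and ob/ob mice given CL316243 (n = 2). The males were lean controls (n = 4), ob/ob mice (n = 4), mice with diet-induced obesity on diet D12451 (n = 3) and such diet-fed mice given pioglitazone (n = 4). Pioglitazone is a thiazolidinedione that activates PPARγ and was given at 10 mg per kg per day for 2 weeks; the label of the third pioglitazone Ay/+ sample gives no dose. CL316243 is a β3 adrenergic agonist and was given at 3 mg per kg per day for 2 weeks. A transcript level does not check the ob mutation, a single base change, nor does it check the agouti allele.

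Array signals were scaled to a 2% trimmed mean of 250 on each array, and tests were run on log2(signal + 23), so that a fold change of a dim gene is understated. A probe set was called where limma's adjusted p, over all 12422 probe sets, was under 0.05. The share of all probe sets called is given for each comparison as the background for the members. A lack of overlap between the arrays of 2 groups is given as a description, and its share over all probe sets was not counted. Adiponectin (Adipoq), the fat cell hormone, had group means of 5950 to 17161, and all 9 measured genes of the fat cell marker list were above the level of 23 in every group. Of the 35 arrays, 22 carry the earlier form of the experiment record and 13 a later form with a scanner line, here called earlier and later arrays. All 4 ob/ob males are later arrays and all drug-treated females are earlier arrays. Of the lean, Ay/+ and ob/ob females, 1 array each is later: lean female 4, Ay/+ female 1 and ob/ob female 4. These later arrays share a scan day. The earlier arrays of the lean, Ay/+ and ob/ob females share no scan day between groups, so in them scan day and genotype cannot be told apart. As for quality, 4 arrays stood apart: Ay/+ female 1 and ob/ob female 4, which correlated with the rest of their groups at 0.891 and 0.884, the third pioglitazone Ay/+ array, whose 5th percentile of signal was 23.9 against 2.14 to 7.26 on the others, and the first pioglitazone diet-fed array, whose Gapdh 3' to 5' ratio was 46.9 against 0.708 to 2.51. The Actb 3' to 5' ratio was highest on lean female 4, at 4.18, and this array was not set apart. It was 3.27 on the first pioglitazone diet-fed array and 0.105 to 2.00 on the others. Calls of members that change without the 4 arrays that stood apart are given both ways. In the later arrays alone the 3 untreated female groups have 1 array each, so such a fit takes its spread from the later arrays of other groups, and its values are given without a test.

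The promoters of the 4 chaperones and of Xbp1 are shown because they differ in exact matches to the ER stress response element. ATF6 binds this sequence together with NF-Y. The element was searched as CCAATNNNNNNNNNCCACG on both strands in windows from 250 bases before to 50 bases after each gene's start (RefSeq, GRCm38.p6), and all 7 genes had a window. It occurred once in the window of Hspa5, 2 times in that of Hsp90b1 and once in that of Calr, and was in 39 of 32851 windows, 0.119%. It was not in the windows of Dnajb9, Xbp1, Atf4 or Ddit3. A search for exact letters in these windows misses elements that lie elsewhere or differ in a letter. The 250 bases before each start are printed 5′ to 3′ on the gene's strand; capitals mark both conserved ends of the element, on either strand, or, in the windows that hold no element, its CCACG part alone, which is in 32.8% of windows.
Hspa5, chr2:34771840-34772089, plus strand: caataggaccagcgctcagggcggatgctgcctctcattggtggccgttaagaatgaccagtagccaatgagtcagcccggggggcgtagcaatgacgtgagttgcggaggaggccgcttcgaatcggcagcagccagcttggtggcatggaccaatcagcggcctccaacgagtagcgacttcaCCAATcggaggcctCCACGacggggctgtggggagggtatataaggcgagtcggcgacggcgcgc
Hsp90b1, chr10:86705445-86705694, minus strand: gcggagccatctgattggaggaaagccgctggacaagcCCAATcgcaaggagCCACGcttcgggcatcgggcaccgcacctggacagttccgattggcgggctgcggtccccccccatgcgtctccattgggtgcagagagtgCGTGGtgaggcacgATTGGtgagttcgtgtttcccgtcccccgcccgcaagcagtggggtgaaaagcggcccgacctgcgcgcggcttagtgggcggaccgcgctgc
Calr, chr8:84846932-84847181, minus strand: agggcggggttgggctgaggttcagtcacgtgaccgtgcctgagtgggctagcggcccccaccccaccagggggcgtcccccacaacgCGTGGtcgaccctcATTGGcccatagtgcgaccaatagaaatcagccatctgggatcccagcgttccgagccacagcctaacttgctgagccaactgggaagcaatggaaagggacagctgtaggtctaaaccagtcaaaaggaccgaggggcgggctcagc
Dnajb9, chr12:44210069-44210318, minus strand: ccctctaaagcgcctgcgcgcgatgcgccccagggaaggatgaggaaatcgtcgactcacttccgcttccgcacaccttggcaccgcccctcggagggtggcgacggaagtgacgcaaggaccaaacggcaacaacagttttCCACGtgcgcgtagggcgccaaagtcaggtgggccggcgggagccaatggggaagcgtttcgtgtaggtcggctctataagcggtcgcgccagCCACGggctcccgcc
Xbp1, chr11:5520391-5520640, plus strand: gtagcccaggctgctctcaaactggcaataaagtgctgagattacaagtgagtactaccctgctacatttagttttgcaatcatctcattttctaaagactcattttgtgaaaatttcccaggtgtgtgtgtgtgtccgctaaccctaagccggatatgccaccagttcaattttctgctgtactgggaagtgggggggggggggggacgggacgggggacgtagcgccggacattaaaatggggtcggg
The element of Hspa5 begins at base -65 from the start, those of Hsp90b1 at -212 and, on the other strand, -107, and that of Calr at -162 on the other strand. Dnajb9 holds CCACG at -108 and -15, and Atf4 at -156 and -87. None of the 7 windows held the shorter element ERSE-II, the XBP1 and ATF6 motif TGACGTGG, or the ATF4 and C/EBP motif TGATGNAA, which were in 0.0365%, 0.676% and 3.97% of all windows. These matches are descriptions of letters and do not show binding.

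Hspa5 encodes BiP, the main HSP70 chaperone of the ER lumen, which holds the sensors inactive while it is free. Its scaled signal was 1168, 1543, 987 and 1760 in lean females and 2494, 2019, 2089 and 1426 in ob/ob females. Ay/+ females had 1354, 704, 581 and 654, and those given pioglitazone 649, 705 and 887. The Ay/+ arrays other than the first lay below all lean arrays, while 3 of the 4 ob/ob arrays lay above them. In ob/ob females given pioglitazone the signal was 2764, 1693 and 2286, and in those given CL316243 it was 789 and 700. Among males it was 1701, 1312, 1679 and 1614 in lean, 2809, 2104, 2309 and 2252 in ob/ob, 1533, 1963 and 1615 in diet-fed, and 2492, 1448, 2499 and 1768 in diet-fed mice given pioglitazone. Hspa5 was thus highest by mean log2 signal in ob/ob males and lowest in Ay/+ females given pioglitazone, with neighbours in the order of the 10 groups overlapping throughout, and the highest group mean was 3.11 times the lowest on the log2(signal + 23) scale. Hspa5 lies at chromosome 2, 34772090 to 34776529 (GRCm38.p6, plus strand).

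Dnajb9 encodes ERdj4, a J-domain partner of BiP that is induced through XBP1, and spanned the widest range, 3.85 times between the highest and lowest group mean. Its brighter probe set read 284, 237, 198 and 249 in lean, 199, 65.3, 84.9 and 65.5 in Ay/+, and 349, 304, 403 and 244 in ob/ob females. In Ay/+ females given pioglitazone it read 185, 165 and 314, in ob/ob females given pioglitazone 415, 296 and 525, and in those given CL316243 97.1 and 78.6. The lowest groups were therefore ob/ob females given CL316243 and untreated Ay/+ females, and the first Ay/+ array again stood above the other 3. Lean males had 269, 159, 283 and 144, ob/ob males 282, 258, 266 and 312, diet-fed males 107, 182 and 388, and diet-fed males given pioglitazone 276, 344, 326 and 333. The second probe set gave group means of 43.0 in lean, 49.0 in Ay/+ and 169 in ob/ob females, 171 and 450 in the pioglitazone groups of Ay/+ and ob/ob, and 41.0 under CL316243. Both probe sets thus placed the ob/ob pioglitazone group highest and the CL316243 group lowest by mean. On the second, however, the CL316243 mean of 41.0 lay close to the 43.0 of lean females, with overlapping arrays. Only the brighter probe set placed Ay/+ below lean. Dnajb9 lies at chromosome 12, 44205897 to 44210068 on the minus strand.

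**Figure D1:**
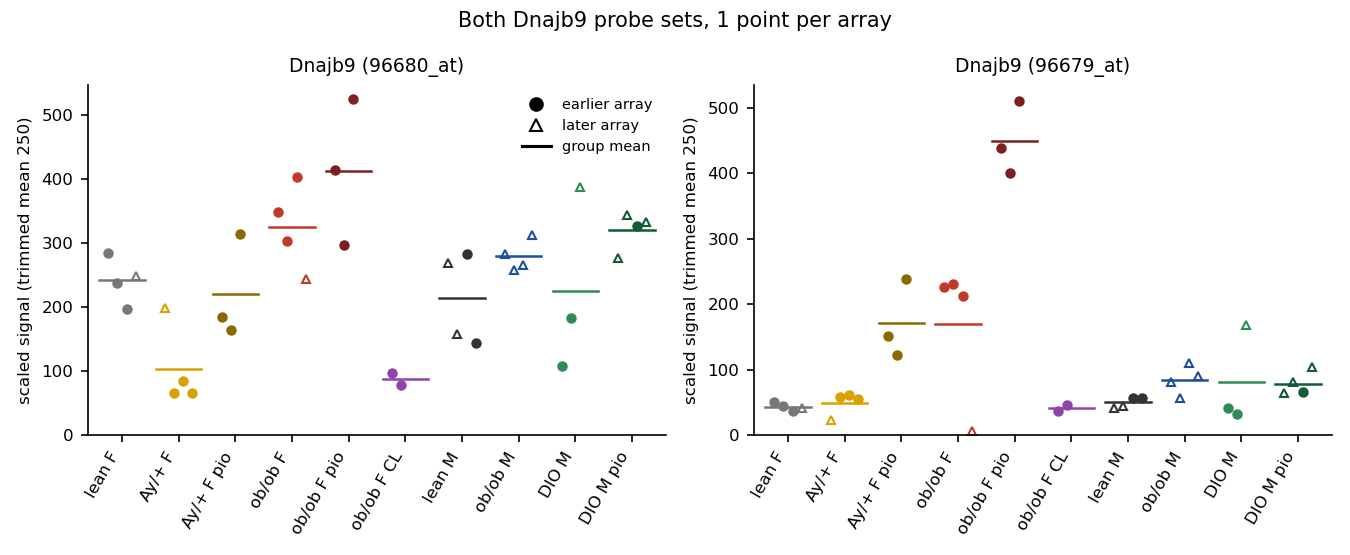
Scaled signal of the 2 Dnajb9 probe sets on each of the 35 arrays by group (1 point an array; circles earlier arrays, open triangles later arrays; bars are group means). The Ay/+ group mean is 104 with the brighter probe set, below the 242 of lean females, and 49.0 with the other, against 43.0 in lean females.

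Hsp90b1 encodes GRP94, the HSP90 of the ER. It read 1296, 1293, 1154 and 2087 in lean, 1450, 873, 790 and 887 in Ay/+, and 1811, 1176, 1419 and 1378 in ob/ob females. With pioglitazone it read 1105, 1083 and 776 in Ay/+ and 1711, 1375 and 1618 in ob/ob, and with CL316243 1174 and 1314. As with Hspa5, 3 of the 4 Ay/+ arrays were below every lean female array, but of the CL316243 arrays 1 lay within the range of the other ob/ob females and 1, at 1174, just below their lowest, at 1176. Males read 1548, 1572, 1155 and 1668 when lean, 2740, 1813, 1805 and 1797 when ob/ob, 1287, 1345 and 1639 when diet-fed, and 2122, 1566, 2077 and 2062 when diet-fed and given pioglitazone. The ob/ob male arrays were all above the lean male ones. The group means spanned 2.04 times, and the CL316243 and pioglitazone Ay/+ groups, next to each other in the order, did not overlap. The gene lies at chromosome 10, 86690841 to 86705444 on the minus strand.

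Calr encodes calreticulin, the calcium-binding lectin that helps glycoproteins fold. Its only probe set was dim: it was below 23 on 24 of 35 arrays and between 0.575 and 75.5 overall. The highest group mean was 36.6 ± 6.21 (SD, n = 4) in lean females, where all 4 arrays, at 29.1, 38.0, 44.1 and 35.3, were above 23. In the other groups the means lay between 6.58 in diet-fed males given pioglitazone and 30.8 in Ay/+ females, whose 4 arrays spread from 6.63 to 75.5. Calr lies at chromosome 8, 84842088 to 84846931 on the minus strand, and values near the noise of the array say little about its level.

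Xbp1, the transcription factor whose mRNA IRE1 splices, read 820, 998, 667 and 811 in lean, 640, 255, 329 and 205 in Ay/+, and 994, 1063, 1215 and 443 in ob/ob females. All Ay/+ arrays were below all lean ones; ob/ob female 4 stood below the other 3 ob/ob arrays. With pioglitazone Xbp1 read 445, 501 and 618 in Ay/+ and 914, 755 and 784 in ob/ob females, and with CL316243 345 and 345. Males read 880, 712, 902 and 1119 when lean, 1021, 818, 907 and 834 when ob/ob, 513, 945 and 748 when diet-fed, and 539, 539, 462 and 411 when diet-fed and given pioglitazone. By mean log2 signal lean males were highest and Ay/+ females lowest, with a span of 2.62 times. The probe set does not separate the spliced from the unspliced form. Xbp1 lies at chromosome 11, 5520641 to 5525993 on the plus strand.

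Atf4, the factor that PERK and the other eIF2α kinases raise at the level of translation, had the narrowest span among the members, 1.64 times. It read 1255, 787, 1128 and 1049 in lean, 1213, 1230, 1157 and 1414 in Ay/+, and 1566, 1764, 1396 and 1121 in ob/ob females. With pioglitazone it read 1746, 1768 and 1501 in Ay/+ and 1539, 1386 and 1441 in ob/ob, and with CL316243 1853 and 1515. Its order differed from that of the chaperones: lean females were low and Ay/+ females given pioglitazone high. Males read 1571, 1327, 2120 and 1493 when lean, 1447, 1711, 1715 and 1458 when ob/ob, 1282, 1554 and 1345 when diet-fed, and 1258, 1011, 911 and 904 when diet-fed and given pioglitazone. The last of these groups was the lowest of all 10. Atf4 lies at chromosome 15, 80255184 to 80257545 on the plus strand.

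Ddit3 encodes CHOP, a transcription factor tied to cell death under lasting ER stress. It read 366, 242, 341 and 194 in lean, 328, 188, 305 and 241 in Ay/+, and 339, 243, 299 and 225 in ob/ob females, so that the 3 groups covered nearly the same range. With pioglitazone it read 292, 191 and 263 in Ay/+ and 190, 156 and 348 in ob/ob females, and with CL316243 528 and 431. Males read 486, 299, 550 and 406 when lean, 291, 364, 296 and 215 when ob/ob, 660, 548 and 257 when diet-fed, and 478, 487, 702 and 520 when diet-fed and given pioglitazone. By mean log2 signal the highest groups were diet-fed males given pioglitazone and ob/ob females given CL316243, followed by untreated diet-fed males, whose mean signal of 488 was above the 480 of the CL316243 group, and the span was 2.33 times. The gene lies at chromosome 10, 127290793 to 127296291 on the plus strand.

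**Figure D2:**
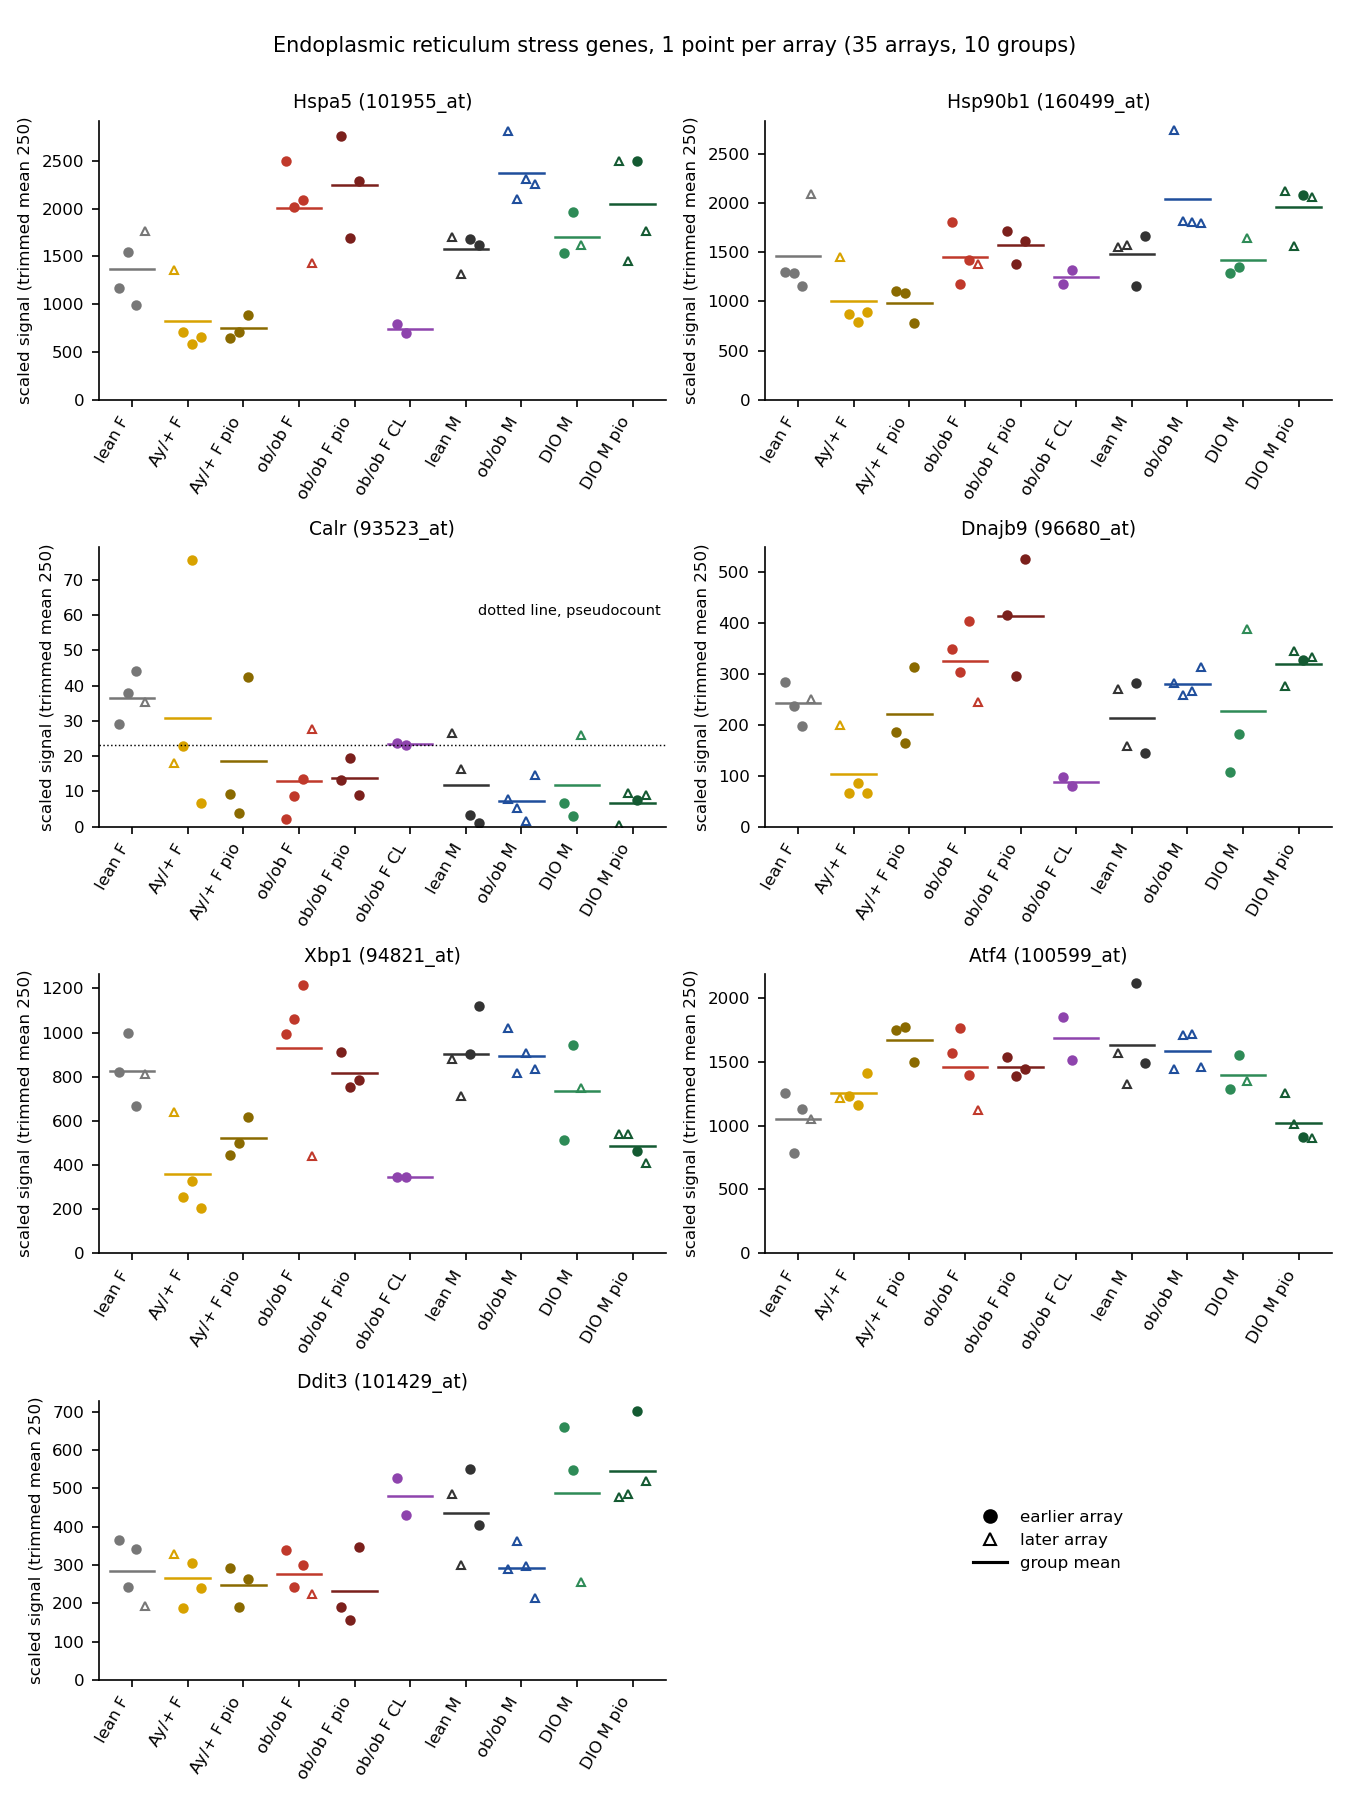
Scaled signal of the 7 genes on each of the 35 arrays, by group (1 panel a gene; circles earlier arrays, open triangles later arrays; bars are group means). Hspa5, Dnajb9 and Xbp1 are low in untreated Ay/+ females and in ob/ob females given CL316243, where both Hspa5 arrays lie at 789 and 700, and Calr lies below 23 on 24 arrays.

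In ob/ob against lean females the members did not move as a group. Atf4 was the 1 of 7 called, at 1462 ± 273 against 1055 ± 198 (SD, n = 4 each), a log2 difference of 0.46 ± 0.17 (SE, adjusted p = 0.0437), with overlapping arrays. Hspa5 averaged 2007 ± 440 against 1365 ± 351 (log2 difference 0.56 ± 0.23, adjusted p = 0.0732), and Calr was lower on every ob/ob array (log2 difference -0.77, adjusted p = 0.0547). Dnajb9, Xbp1, Hsp90b1 and Ddit3 had log2 differences of 0.38, 0.09, 0.01 and -0.02. Of all probe sets 10.3% were called higher and 14% lower, so 1 of 7 is near the background. The median of all probe sets was itself -0.18 here and -0.05 after quantile normalization; relative to the median, Atf4 differed by 0.65 and Hspa5 by 0.74. The Atf4 call was lost after quantile normalization (adjusted p = 0.0983), with scan day as a random block (0.176), in a fit of the compared groups alone (0.171), without the mean-variance trend (0.0549) and, with adjusted p from 0.0584 to 0.169, when lean female 2, 3 or 4 or ob/ob female 1, 2 or 3 was left out. Without ob/ob female 4, in contrast, Hspa5 was called at 0.71 (adjusted p = 0.0209) and Calr at -0.95 (adjusted p = 0.0195), and without lean female 4 Hspa5 was called at 0.69 (adjusted p = 0.0345); without the 4 arrays that stood apart Hspa5, Calr and Atf4 were all called, at 0.71, -0.95 and 0.58. The single later ob/ob array differed from the single later lean array by -0.30 for Hspa5 and 0.09 for Atf4.

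Macrophage genes moved with this comparison: Cd68, a macrophage marker, averaged 269 in lean and 3262 in ob/ob females, and the mean log2 signal of the 18 measured macrophage and myeloid genes was 7.60 to 8.22 on lean and 9.49 to 10.23 on ob/ob arrays, while the fat cell list was at 10.45 to 11.16 and 10.55 to 10.69. In RNA of whole tissue fewer cells of a type and less RNA per cell cannot be told apart, and the part of these cells in the differences was not tested.

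Untreated Ay/+ females, in contrast, had less of several members than lean females. Hspa5 fell from 1365 ± 351 to 823 ± 357 (log2 difference -0.76 ± 0.23, adjusted p = 0.0194), Dnajb9 from 242 ± 35.6 to 104 ± 64.3 (-1.17 ± 0.29, adjusted p = 0.00424) and Xbp1 from 824 ± 136 to 357 ± 195 (-1.27 ± 0.26, adjusted p = 8.17e-04). Thus 3 of 7 members were called lower, against 11.5% of all probe sets, and 0 higher, against 6.26%; of the called probe sets 35.2% were higher, and 45.6% after quantile normalization. Only Xbp1 had no overlap between the groups, a description whose share over all probe sets was not counted. Hsp90b1 averaged 1000 ± 303 against 1457 ± 425 (log2 difference -0.54, adjusted p = 0.0632), and Atf4, Ddit3 and Calr had log2 differences of 0.26, -0.09 and -0.29. The other Dnajb9 probe set gave 0.09 (adjusted p = 0.913), so the fall of Dnajb9 rests on 1 of its 2 probe sets.

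In the 3 earlier arrays of each group the log2 differences were larger, -0.89 for Hspa5, -1.46 for Dnajb9 and -1.58 for Xbp1, while the single later Ay/+ array differed from the single later lean array by -0.37, -0.29 and -0.33. The earlier arrays of the 2 groups share no scan day, so scan day and genotype cannot be told apart in them. The Hspa5 call was lost, with adjusted p up to 0.0879, without lean female 2 or 4 or Ay/+ female 2, 3 or 4, and a fit of these 2 groups alone lost Hspa5 (adjusted p = 0.155) and Dnajb9 (0.0754). Hsp90b1 was called without Ay/+ female 1 (log2 difference -0.72, adjusted p = 0.00647) and without the 4 arrays that stood apart (-0.72, adjusted p = 0.00364). Cd68 averaged 940 in Ay/+ females, the macrophage list was at 8.56 to 9.26 and the fat cell list at 11.17 to 11.40, all above the lean ranges, and the 8 measured pancreas genes were at 6.50 to 7.88 against 6.38 to 6.80 in lean females; their part in the differences was not tested.

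The 2 genetic models of obesity differed from each other in 3 members. Compared with Ay/+ females, ob/ob females had more Hspa5 (2007 ± 440 against 823 ± 357, log2 difference 1.32 ± 0.23, adjusted p = 1.99e-04), Dnajb9 (325 ± 67.5 against 104 ± 64.3, 1.55 ± 0.29, adjusted p = 3.68e-04) and Xbp1 (929 ± 337 against 357 ± 195, 1.36 ± 0.26, adjusted p = 4.83e-04). The Hspa5 and Dnajb9 arrays did not overlap; for Xbp1 the fourth ob/ob array, at 443, lay below the first Ay/+ array, at 640. Of the 7, 3 were called higher, against 11.7% of all probe sets, and 0 lower, against 9.93%. Hsp90b1 averaged 1446 against 1000 (log2 difference 0.55, adjusted p = 0.0505), and Atf4, Ddit3 and Calr had differences of 0.20, 0.07 and -0.48. The second Dnajb9 probe set gave 1.04 (adjusted p = 0.0801). This comparison and the one of Ay/+ with lean females share the Ay/+ arrays.

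All 3 calls remained when any 1 array of these 2 groups was left out, and the earlier arrays alone gave 1.73 for Hspa5, 1.98 for Dnajb9 and 1.98 for Xbp1. Those earlier arrays share no scan day between the groups, so scan day and genotype cannot be told apart in them either. The 2 later arrays, which are among the 4 that stood apart, gave 0.07, 0.26 and -0.51, the last in the other direction, and a fit of these groups alone lost Xbp1 (adjusted p = 0.0826). Hsp90b1 was called without Ay/+ female 1 (0.74, adjusted p = 0.00455), without the 4 arrays that stood apart (0.75, adjusted p = 0.00361) and with the replicate number as a block (0.55, adjusted p = 0.0415). Adipoq was lower in ob/ob than in Ay/+ females (6944 against 17161, log2 difference -1.33, adjusted p = 0.00255) and Cd68 higher (1.57, adjusted p = 2.16e-04); their part in the differences was not tested.

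**Figure D3:**
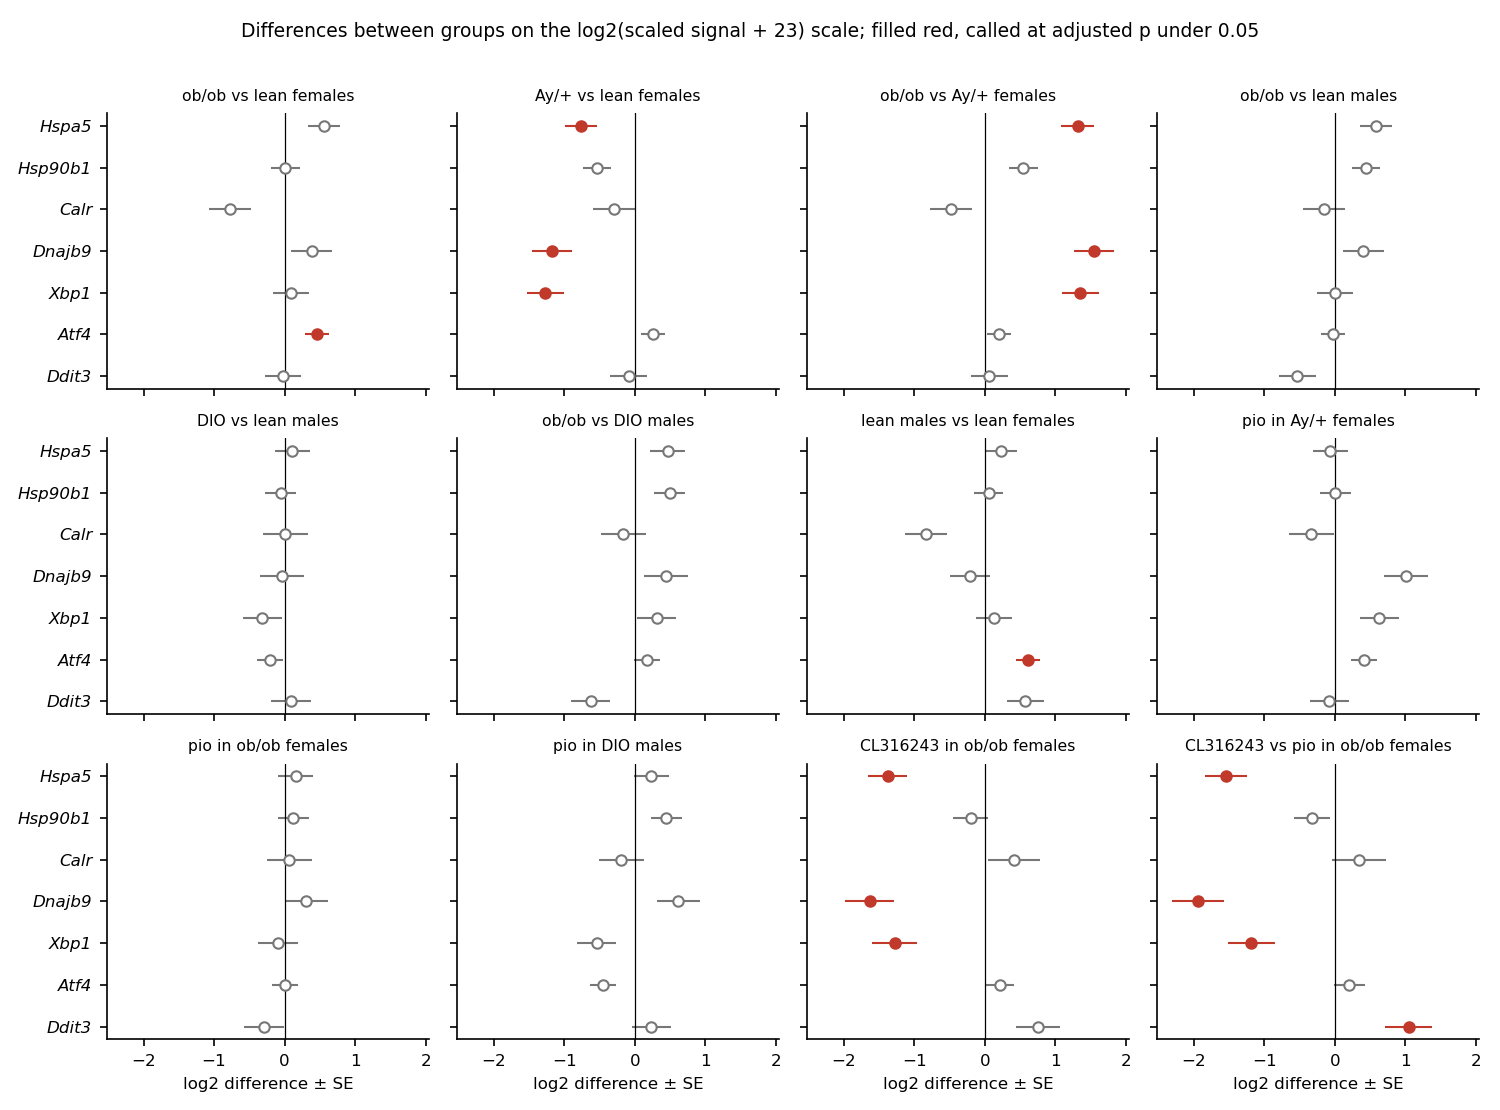
Log2 difference in scaled signal (on the log2(signal + 23) scale, ± SE) of the 7 genes in 12 comparisons; filled red points passed an adjusted p of 0.05. Hspa5, Dnajb9 and Xbp1 are called lower in Ay/+ than in lean females, higher in ob/ob than in Ay/+ females, and lower with CL316243.

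In males the genetic and dietary models left the members without a call. Hspa5 averaged 2369 ± 306 in ob/ob and 1577 ± 180 in lean males, without overlap (n = 4 each, log2 difference 0.58, adjusted p = 0.116), and Hsp90b1 2039 ± 467 and 1486 ± 226, also without overlap (0.44, adjusted p = 0.209). Dnajb9, Xbp1, Atf4, Calr and Ddit3 had differences of 0.40, -0.00, -0.02, -0.15 and -0.53. None of 7 was called in either direction, against 5.62% of probe sets higher and 4.96% lower, although Hspa5 was called in a fit of these groups alone (adjusted p = 0.0135), with array weights (0.0102) and without the 4 arrays that stood apart (0.0220). All ob/ob males were scanned apart from the lean males, so scan day and genotype cannot be told apart here. Cd68 averaged 582 in lean and 5429 in ob/ob males, and the fat cell list was at 11.02 to 11.36 and 9.79 to 10.26; their part was not tested.

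Diet-fed males differed from lean males by between -0.31, for Xbp1, and 0.11, for Hspa5, with 0 of 7 called by limma and 0 at an unadjusted p under 0.05; of all probe sets 1.22% were higher and 0.628% lower. Between ob/ob and diet-fed males Hspa5 (log2 difference 0.47, adjusted p = 0.512) and Hsp90b1 (0.49, adjusted p = 0.379) were higher on every ob/ob array and Ddit3 was lower (-0.62, adjusted p = 0.384), with 0 of 7 called, against 0.258% of probe sets higher and 0.62% lower.

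Lean males and lean females differed in Atf4. It averaged 1628 ± 344 in males and 1055 ± 198 in females, without overlap (log2 difference 0.61 ± 0.17, adjusted p = 0.0148), and was 1 of 7 called, against 5.22% of probe sets higher and 10.5% lower. Calr was lower on every male array (11.7 ± 11.9 against 36.6 ± 6.21, log2 difference -0.84, adjusted p = 0.0502), and Ddit3 averaged 435 against 286 (0.58, adjusted p = 0.120). The median of all probe sets was -0.20 here and -0.01 after quantile normalization, and of the called probe sets 33.2% were higher, or 55.5% after quantile normalization; relative to the median Atf4 differed by 0.81 and Calr by -0.64. The Atf4 call was lost after quantile normalization (0.45, adjusted p = 0.0685), in a fit of these groups alone (0.0631) and, with adjusted p up to 0.0644, without lean female 2 or lean male 3. Calr was called without lean male 1 (-1.03, adjusted p = 0.0336) and without the 4 arrays that stood apart (adjusted p = 0.0213). In the later arrays, 2 males against 1 female, Atf4 differed by 0.45. Of the marker lists, 9 of 12 skeletal muscle genes were lower in males (list mean 6.21 to 6.27 on male and 7.11 to 8.40 on female arrays), 8 of 18 macrophage genes were higher, and of 9 fat cell genes 4 were higher and 1 lower; their part was not tested.

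The effect of ob/ob did not differ by sex for any member by a test of the interaction, with 0 of 7 called and Atf4 at -0.49 (male minus female effect, adjusted p = 0.222); of all probe sets 2.84% were called in each direction, where 50% of the calls were higher, or 39.9% after quantile normalization. Without the 4 arrays that stood apart the Atf4 interaction was -0.60 (adjusted p = 0.0408). The median of all interactions was 0.23 and fell to 0.03 with quantile normalization.

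Pioglitazone was given in 3 obese settings, and in none was a member called. In Ay/+ females Dnajb9 averaged 221 ± 80.9 with the drug (n = 3) and 104 ± 64.3 without (n = 4), a log2 difference of 1.01 ± 0.31 (adjusted p = 0.0672), and its second probe set 171 against 49.0, without overlap (1.42, adjusted p = 0.0931). Xbp1 averaged 521 ± 88.7 against 357 ± 195 (0.63, adjusted p = 0.259) and Atf4 1672 ± 148 against 1253 ± 111, without overlap (0.41, adjusted p = 0.269). Of all probe sets 2.13% were called higher and 0.91% lower. Without Ay/+ female 1 Dnajb9 was called at 1.32 (adjusted p = 0.00375) and Xbp1 at 0.94 (adjusted p = 0.0192), and without the 4 arrays that stood apart at 1.06 (adjusted p = 0.0297) and 0.81 (adjusted p = 0.0166); Dnajb9 was also called after quantile normalization (1.17, adjusted p = 0.0264).

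In ob/ob females the second Dnajb9 probe set read 438, 400 and 510 with pioglitazone against 227, 231, 213 and 5.59 without, with no overlap (log2 difference 1.71, adjusted p = 0.0679), and the brighter one differed by 0.31 (adjusted p = 0.999). None of 7 was called, against 0.733% of probe sets higher and 0.33% lower, and the 2 groups share no scan day. In diet-fed males Atf4 was lower on every pioglitazone array (1021 ± 165 against 1394 ± 142, log2 difference -0.45, adjusted p = 0.330), Xbp1 averaged 488 ± 62.6 against 735 ± 216 (-0.54, adjusted p = 0.530), and Dnajb9 and Hsp90b1 were higher by 0.62 and 0.45 (adjusted p = 0.502 for Dnajb9). None of 7 was called, against 0.757% higher and 0.66% lower, but with array weights Xbp1 (-0.77, adjusted p = 0.0124) and Atf4 (-0.56, adjusted p = 0.0243) were. The difference between the pioglitazone effects in ob/ob and Ay/+ females was called for 0 of 7 members, against 0.0161% of probe sets higher and 0.00805% lower; 66.7% of those 3 calls were higher, and 100% of 2 after quantile normalization.

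CL316243 in ob/ob females went with low Hspa5, Dnajb9 and Xbp1. Hspa5 fell from 2007 ± 440 (n = 4) to 744 ± 62.9 (n = 2), by 1.38 ± 0.28 on the log2 scale (adjusted p = 0.00644), Dnajb9 from 325 ± 67.5 to 87.8 ± 13.1, by 1.63 ± 0.35 (adjusted p = 0.00905), and Xbp1 from 929 ± 337 to 345 ± 0.267, by 1.28 ± 0.31 (adjusted p = 0.0206). None of these overlapped, but neither did Ddit3, which was not called, so with 2 treated arrays a lack of overlap is weak support. Of the members, 3 of 7 were called lower against 2.18% of all probe sets, with 0 of 7 higher against 1.55%. Of all calls 41.6% were higher, or 54.6% after quantile normalization. Ddit3 was higher on both drug arrays (480 ± 68.5 against 277 ± 52.0, log2 difference 0.76, adjusted p = 0.185). Hsp90b1, Calr and Atf4 differed by -0.20, 0.41 and 0.21, and the second Dnajb9 probe set by -1.17 (adjusted p = 0.223).

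With 2 treated arrays these calls are fragile. Without either CL316243 array, which leaves 1 that is assumed to vary like the other groups, Hspa5 and Dnajb9 were no longer called (adjusted p up to 0.118 and 0.135), and Xbp1 was called only when ob/ob female 4 was the array left out (adjusted p up to 0.204 otherwise, for ob/ob female 1, 2 or 3 or either CL316243 array). No scan day holds both groups; with scan day as a random block none was called (adjusted p = 0.0769, 0.0758 and 0.168), nor in a fit of these groups alone (0.0740, 0.0636 and 0.171). The macrophage list was at 9.79 to 9.85 with CL316243 and 9.49 to 10.23 without, and Cd68 averaged 3087 and 3262. The fat cell list was at 11.04 to 11.24 against 10.55 to 10.69, Adipoq averaged 12745 against 6944 (log2 difference 0.97, adjusted p = 0.146), and the pancreas list was at 6.93 to 7.06 against 6.43 to 6.68; their part was not tested.

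The 2 drugs, which are of different classes and were given at different doses, could be set beside each other in ob/ob females at the same 2 weeks. With CL316243 Hspa5 was 744 against 2247 with pioglitazone (log2 difference -1.54 ± 0.30, adjusted p = 9.97e-04), Dnajb9 87.8 against 412 (-1.94 ± 0.37, adjusted p = 8.85e-04), Xbp1 345 against 818 (-1.19 ± 0.33, adjusted p = 0.0224) and Ddit3 480 against 231 (1.05 ± 0.33, adjusted p = 0.0474). All 4 were without overlap, but so were Hsp90b1 (adjusted p = 0.509) and Calr (adjusted p = 0.662), which were not called. With so few arrays a lack of overlap is weak support for a call, and its share over all probe sets was not counted. Of the members, 3 of 7 were called lower, against 4.69% of probe sets, and 1 higher, against 2.91%. The second Dnajb9 probe set was called too (-2.88, adjusted p = 0.00105), and this is the only comparison in which both were. Hspa5 and Dnajb9 were called whichever array was left out. Xbp1 and Ddit3 each lost their call in 4 of 5 such fits (adjusted p up to 0.154 and 0.306), Xbp1 in all but that without the second and Ddit3 in all but that without the third pioglitazone array, and with scan day as a random block (0.0931 and 0.147), Ddit3 also in a fit of these groups alone (0.0506) and without the mean-variance trend (0.0569); no scan day holds both groups. Both CL316243 comparisons share the same 2 treated arrays.

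The rest of the pathway was followed in 6 lists that hold none of the 7 members. Their counts are to be read against all probe sets, of which 10.3% were higher and 14% lower in ob/ob against lean females, 6.26% and 11.5% in Ay/+ against lean females, 11.7% and 9.93% in ob/ob against Ay/+ females, and 5.62% and 4.96% in ob/ob against lean males. Of 24 measured ER chaperones and folding enzymes, 4 were higher and 4 lower in ob/ob than in lean females (median log2 difference 0.01, against -0.18 for all probe sets). Pdia6, a protein disulfide isomerase, rose from 91.6 ± 62.8 to 802 ± 420 (log2 difference 2.78 ± 0.52, adjusted p = 1.96e-04) and Fkbp11, an ER prolyl isomerase, fell from 126 ± 52.3 to 47.3 ± 19.2 (-1.06, adjusted p = 0.0217). In Ay/+ females 2 of the 24 were higher and 1 lower than in lean females, with Pdia6 again higher (1.85, adjusted p = 0.0122) and Fkbp11 again lower (-1.68, adjusted p = 8.04e-04); both comparisons use the same lean arrays. Erp29 rose by 0.88 (adjusted p = 0.0118). Lean males also had more Erp29 (0.82, adjusted p = 0.0234) and less Fkbp11 (-1.08, adjusted p = 0.0297) than lean females, the 1 higher and 1 lower of the 24. The median difference of the 24 in Ay/+ females was 0.01, against -0.06 for all probe sets. Between ob/ob and Ay/+ females 3 were higher and 2 lower. In ob/ob males Manf, a secreted stress protein, rose by 0.93 (adjusted p = 0.0160) and Ppib by 0.67 (adjusted p = 0.0117), the 2 called of 24, with a list median of 0.36 against 0.06 for all probe sets. With CL316243 1 of the 24 was lower, Pdia3, which fell from 543 ± 232 to 182 ± 27.0 (n = 2, -1.35, adjusted p = 0.0462). Pdia3 and Erp44 were the 2 lower than with pioglitazone.

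Of 13 measured genes of ER-associated degradation, which return misfolded proteins to the cytosol, 6 were higher and 1 lower in ob/ob than in lean females (median 0.63), and 2 higher and 3 lower in Ay/+ females. Ubxn4, an ER membrane protein of this pathway, fell from 325 ± 83.7 in lean to 142 ± 40.8 in Ay/+ females (-1.08, adjusted p = 3.10e-04). It was higher in ob/ob than in Ay/+ females (1.09, adjusted p = 3.44e-04), as was Herpud1, an ER stress target (0.82, adjusted p = 0.0148), among 3 higher and 0 lower. Derl1, a membrane component, fell in both male models, from 836 ± 139 to 313 ± 22.6 in ob/ob (-1.34, adjusted p = 1.92e-06) and to 355 ± 82.1 in diet-fed males (-1.20, adjusted p = 2.26e-04), the 1 called of 13 in each; these comparisons share the lean males.

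Among 13 measured sensors and transcription factors, Atf3, a stress-induced factor downstream of Atf4 and other signals, moved furthest. It rose from 189 ± 66.7 in lean to 1071 ± 220 in ob/ob females (2.39 ± 0.31, adjusted p = 8.33e-07), and from 174 ± 11.1 in lean to 1833 ± 242 in ob/ob males (3.23 ± 0.31, adjusted p = 1.85e-09) and 1108 ± 183 in diet-fed males (2.51 ± 0.33, adjusted p = 1.05e-05). Called genes in this list numbered 2 higher and 0 lower in ob/ob females, 1 and 2 in Ay/+ females, 4 and 2 in ob/ob against Ay/+ females, 1 and 1 in ob/ob males and 1 and 0 in diet-fed males. Atf3 averaged 241 ± 126 in Ay/+ females, and ob/ob females were higher than these by 2.13 ± 0.31 (adjusted p = 2.60e-05). Macrophage genes were high in ob/ob females, ob/ob males and diet-fed males, with Cd68 at 3262, 5429 and 3315. In Ay/+ females Cd68, at 940, was also above lean females (log2 difference 1.73, adjusted p = 5.32e-05). The part of macrophage genes was not tested.

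Of 24 measured integrated stress response targets, genes raised when eIF2α is phosphorylated, 5 were higher and 3 lower in ob/ob than in lean females, the latter near the 14% of all probe sets. Slc3a2, an amino acid transporter chain, rose from 636 ± 162 to 1865 ± 705 (1.45, adjusted p = 7.02e-05) and Ddit4, an mTORC1 inhibitor, by 1.12 (adjusted p = 0.00446), while Eif4ebp1, a translation repressor and Atf4 target, fell from 1109 ± 59.4 to 385 ± 40.1 (-1.47, adjusted p = 1.17e-04) and in ob/ob males by 1.52 (adjusted p = 8.59e-05). Lean males also had more Slc3a2 than lean females, at 1591 ± 390 (1.29, adjusted p = 8.97e-04), among 2 higher and 1 lower. In Ay/+ females 1 was higher and 4 lower than in lean females. Among the latter were the phosphatase subunits Ppp1r15b (-1.17, adjusted p = 2.39e-04) and Ppp1r15a (-0.91, adjusted p = 0.0323). Between ob/ob and Ay/+ females 6 were higher and 1 lower. With pioglitazone Gars, a tRNA ligase, was higher in Ay/+ females (0.96, adjusted p = 0.00578) and in diet-fed males (1.24, adjusted p = 5.05e-04). Nupr1, a small stress-induced nuclear protein, fell from 1245 ± 535 to 329 ± 75.4 with pioglitazone in ob/ob females (-1.79, adjusted p = 7.97e-04) and was 2515 ± 56.0 with CL316243 (2.88 above pioglitazone, adjusted p = 5.49e-06). In that last comparison, where Ddit3 was the member that was higher, Asns, which makes asparagine (-1.26, adjusted p = 0.0252), and Slc3a2 (-1.09, adjusted p = 0.0327) were lower.

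Of 37 measured genes of translocation and ER export, 4 were higher and 2 lower in ob/ob females and 4 higher and 6 lower in Ay/+ females, each against lean females, with the 4 in ob/ob females near the 10.3% of all probe sets; Sec31a, a COPII coat subunit, was higher in both (1.09 and 0.95). Sec11c, Spcs2 and Ostc, subunits of the signal peptidase and of oligosaccharyltransferase, were the 3 higher in ob/ob males (0.76, 0.73 and 0.66), with 0 lower. Lean males had more Sec31a than lean females (1.00), among 4 higher, and less Sec11c (-0.94), the 1 lower. Kdelr2, a retrieval receptor for ER chaperones, was the 1 called with CL316243, at 3528 ± 759 (n = 2) against 281 ± 176 (n = 4, 3.67 ± 0.77, adjusted p = 0.00675). All list genes called with CL316243 rest on these 2 treated arrays and were not followed singly through the alternatives. Of 17 measured cytosolic and mitochondrial heat shock genes, 1 was higher and 8 were lower in Ay/+ than in lean females, and 7 were higher and 0 lower in ob/ob than in Ay/+ females, against 11.5% of all probe sets lower in the first comparison and 11.7% higher in the second, which share the Ay/+ arrays. Dnaja1 fell from 1655 ± 380 to 555 ± 264 (-1.61, adjusted p = 3.04e-05), the inducible Hspa1a by 1.36 (adjusted p = 0.00131), and Hspe1, the mitochondrial co-chaperonin, from 3260 to 1047 (-1.56, adjusted p = 7.68e-06). Against lean females 3 were higher and 4 lower in ob/ob females, Dnaja1 (-1.11, adjusted p = 0.00146) and Hspe1 (-1.69, adjusted p = 7.97e-07) among the latter. Hspe1 was also lower in lean males than in lean females (1491 against 3260, -1.03, adjusted p = 0.00224), among 2 higher and 1 lower. In ob/ob males 0 were higher and 3 lower, with the small heat shock protein Hspb8 at 544 ± 28.5 against 2404 ± 330 (-2.09 ± 0.16, adjusted p = 2.51e-11). With CL316243 2 of 17 were lower, Hspa1b (-1.50, adjusted p = 0.0273) and Hsph1 (251 against 529 ± 78.5, adjusted p = 0.0372). Hspa1a and Hspa1b are near-identical copies, and their probe sets may not tell them apart.

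**Figure D4:**
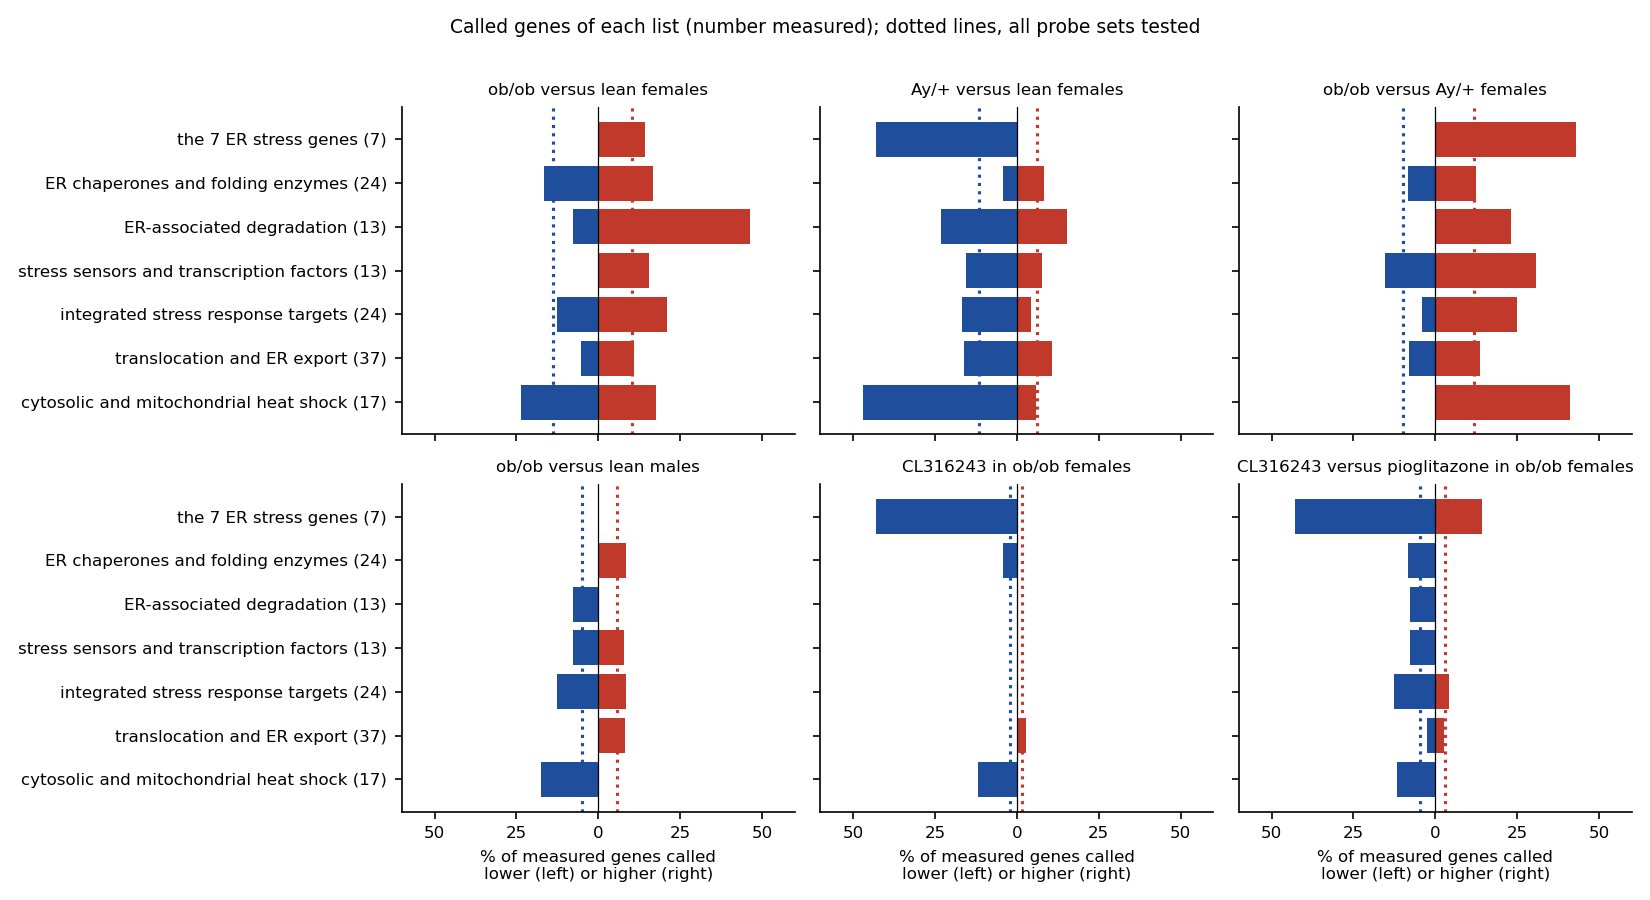
Percent of the measured genes of each list called higher (to the right) or lower (to the left) in 6 comparisons; dotted lines give the percent of all 12422 probe sets called. In Ay/+ against lean females 3 of the 7 members and 8 of 17 heat shock genes are lower, and of the 24 ER chaperones and folding enzymes 1 is lower and 2 are higher.

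Across the 10 group means Hspa5 went with Hsp90b1 (r = 0.879), Dnajb9 (0.829) and Xbp1 (0.767), and hardly with Ddit3 (0.034); Calr ran against it (-0.637). Over all groups the genes whose group means were most like those of a member, among 6106 candidates with 1 symbol, were Vps4b (r = 0.978) and Psmd12 (0.974) for Hspa5, Atp13a3 (0.976) and Rpa2 (0.969) for Dnajb9, Uso1 (0.935) and Trim25 (0.934) for Hsp90b1, and Zfp871 (0.966) and Mfsd14a (0.958) for Xbp1. For Atf4 they were Lmbr1l (0.915) and Pygo2 (0.894), for Ddit3 Pdrg1 (0.906) and Ddb1 (0.905), and for Calr Shmt2 (0.963) and Tubb4a (0.957). These correlations describe 10 points that share arrays and scaling.

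Within groups, over the deviations of 35 arrays from their group means, 21 pairs of members were compared by permutation within groups. Hspa5 and Xbp1 deviated together (Pearson r = 0.689, p = 6.6e-04, adjusted p = 0.0107; Spearman rho = 0.635, adjusted p = 0.00672), and so did Hspa5 and Hsp90b1 (r = 0.599, adjusted p = 0.0274; rho = 0.452, adjusted p = 0.0943). Calr and Atf4 deviated in opposite directions (r = -0.525, adjusted p = 0.0107; rho = -0.624, adjusted p = 0.00462). Without the 2 arrays farthest from the median of the first gene these were 0.528, 0.515 and -0.535. Hspa5 and Xbp1 gave 0.598 in the earlier and 0.766 in the later arrays, and Hspa5 and Hsp90b1 0.388 and 0.807. Both kinds of subset kept the deviations from the group means of all arrays, so the arrays left out still shaped these values. Hspa5 with Dnajb9 (r = 0.500) and Dnajb9 with Xbp1 (r = 0.578) passed too, each at an adjusted p of 0.0473. The group means were taken again without the 4 arrays that stood apart, a choice made after seeing the data. No pair then passed. Hspa5 and Xbp1 fell to 0.349 (adjusted p = 0.449) and Hspa5 and Hsp90b1 were at 0.603 (adjusted p = 0.0880). Calr and Atf4 were at -0.411 (adjusted p = 0.449). The relation of Hspa5 and Xbp1 within groups therefore rests on those arrays. That of Calr and Atf4 is limited by the signal of Calr, which was below 23 on 24 of the 35 arrays.

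**Figure D5:**
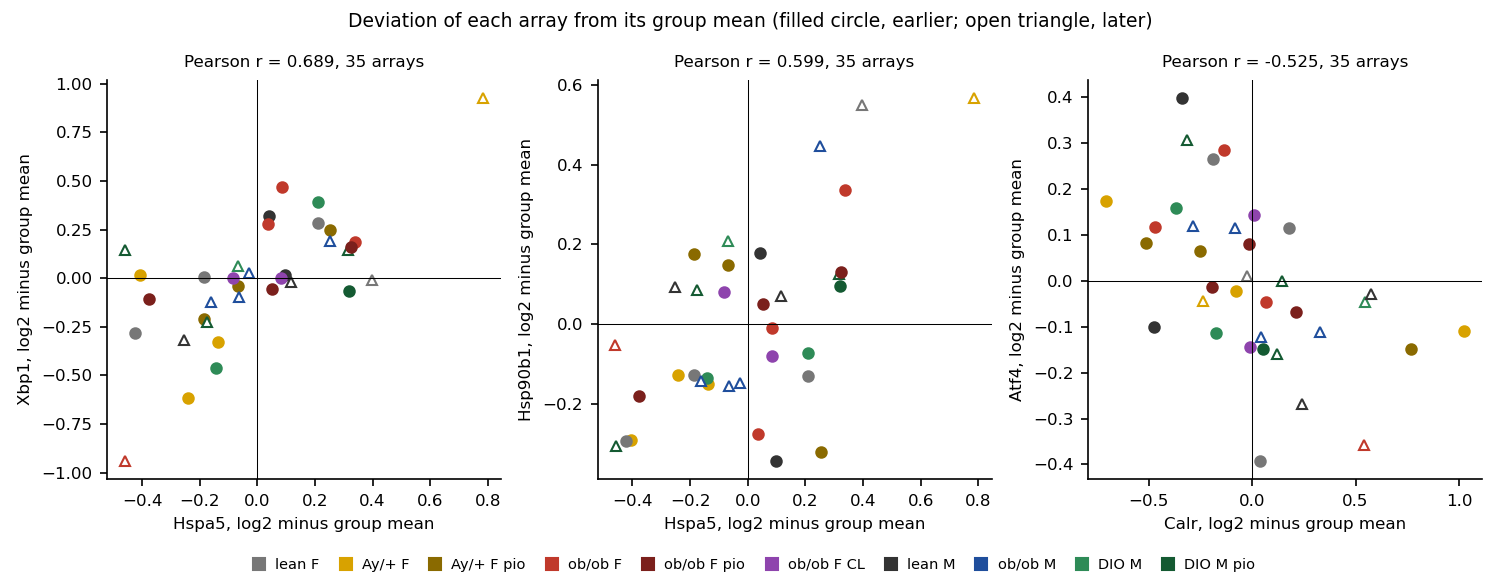
Deviation of each of the 35 arrays from its group mean (log2 scale) for Hspa5 against Xbp1, Hspa5 against Hsp90b1, and Calr against Atf4. Over all arrays r is 0.689, 0.599 and -0.525, and without the 4 arrays that stood apart 0.349, 0.603 and -0.411.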

How the data were processed

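RNA of perigonadal fat was measured on 35 arrays. The authors deposited 1 intensity per probe set and array, made with MAS5 per the submitters' processing notes; MAS5 averages perfect-match minus mismatch probes, so dim probe sets are noisy, and the number of arrays limits the precision. The depth of a count does not apply. The deposited intensities had 2% trimmed means from 250.153 to 1680 and were scaled here to 250, 66 control probe sets were left out, and log2(signal + 23), where 23 is the 25th percentile, was fitted with limma 3.58.1 in R 4.3.3: 10 group means over all 35 arrays, 14 contrasts, eBayes with a trend, Benjamini-Hochberg over 12422 probe sets, called under 0.05. Python 3.11.15 with numpy 2.4.6, pandas 2.3.3 and scipy 1.17.1 made the tables and matplotlib 3.10.9 the figures. The brightest probe set stands for a gene. Of the probe sets, 10833 have 1 symbol, 396 several and 1193 none in the platform annotation. The fit was tested on simulated data.

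The members, the 6 pathway lists, the 10 marker lists, the alternatives and the 4 arrays set apart were chosen with earlier results of these data known. Named pathway genes are, per list and comparison, up to 3 called genes with the largest differences, no overlap between groups and a higher mean of at least 2 times 23; values of other genes are not given. The alternatives were quantile normalization, pseudocount 1, a filter at the median signal, no trend, the compared groups alone, array weights, the array form or scan day as a block, either array form alone, the replicate number as a block, the other Dnajb9 probe set, and leaving arrays out. Replicate numbers of the titles did not pair arrays: in no comparison was the correlation of deviations over 0.1 for every pair. No 2 arrays held identical values. The settings of the experiment records, the other deposited columns, gave the array form and scan day; protein sequences were not used here.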

Additional observations from a re-analysis of the deposited data

Results flagged for a closer look

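Of 48 sets of 4 arrays (a probe set in a group), 8 held an array whose gap to the nearest of the others, over the whole range of the set, was above Dixon's 95% critical value; chance gives about 1 in 20. Of the 8, 3 were high values of the first Ay/+ female array: 1354 for Hspa5, where the other arrays of the group read 704 or less, 199 for the brighter Dnajb9 probe set and 1450 for Hsp90b1, and on the other Dnajb9 probe set the same array was low, at 23.1. The fourth ob/ob female array was low on that Dnajb9 probe set, at 5.59, where the other 3 read 213 or more. Hsp90b1 was high on lean female 4, at 2087, and on ob/ob male 1, at 2740, and low on the second array of diet-fed males given pioglitazone, at 1566. Ay/+ female 1, ob/ob female 4 and lean female 4 are the later arrays of their groups; the part of the array form in these values was not tested.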

How the results depend on the processing

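Of 1932 values of single genes under alternatives, 1821 kept their side of the threshold, 51 gained a call, 58 lost one and 2 called values turned their sign: Dnajb9 in Ay/+ against lean females with its other probe set (0.090, adjusted p = 0.913) and Xbp1 in ob/ob against Ay/+ females in the later arrays alone (-0.51). Of the 1821, 157 were not called under either setting and turned their sign, 24 of them in the later arrays alone, where the untreated female groups have 1 array each. The number of the 7 members called in ob/ob against lean females, 1 as reported, was 0 with quantile normalization, no trend, the compared groups alone, scan day as a random block or later arrays, 2 with the array form as a block, and 3 with array weights, earlier arrays or without the 4 arrays that stood apart, and 0 to 3 leaving out 1 array. In Ay/+ against lean females it was 3, but 1 with the compared groups alone, 4 with quantile normalization, the filter at the median, the array form as a block, earlier arrays or without the 4 arrays, 0 in later arrays and 2 to 4 leaving out 1 array. In ob/ob against Ay/+ females it was 3, but 2 with the compared groups alone, 4 with quantile normalization, the filter at the median, the array form as a block, earlier arrays, the replicate block or without the 4 arrays, 5 with array weights, 0 in later arrays and 3 to 4 leaving out 1 array. In ob/ob against lean males it was 0, but 1 with the compared groups alone, array weights or without the 4 arrays, and 0 leaving out any 1 array. In lean males against lean females it was 1, but 0 with quantile normalization, the compared groups alone or later arrays, 2 with array weights, the array form as a block, earlier arrays or without the 4 arrays, and 0 to 2 leaving out 1 array. The sex difference of the ob/ob effect had 0, but 1 with array weights or without the 4 arrays. Pioglitazone in Ay/+ females had 0, but 1 with quantile normalization, the filter at the median, array weights, the array form or scan day as a block, 2 in earlier arrays or without the 4 arrays, and 0 to 2 leaving out 1 array. Pioglitazone in diet-fed males had 0, but 2 with array weights, and the difference of the pioglitazone effects had 0, but 1 in earlier arrays. CL316243 in ob/ob females had 3, but 0 with the compared groups alone or scan day as a random block, and 0 to 3 leaving out 1 array; against pioglitazone it had 4, but 3 with no trend or the compared groups alone, 2 with scan day as a random block and 2 to 3 leaving out 1 array. Diet-fed against lean males, ob/ob against diet-fed males and pioglitazone in ob/ob females had 0 in each alternative run. Over all probe sets the calls moved more: 3024 in ob/ob against lean females (517 to 5630 over the alternatives), 2207 in Ay/+ against lean females (162 to 4102), 2685 in ob/ob against Ay/+ females (221 to 5357), 1314 in ob/ob against lean males (1076 to 2554), 230 in diet-fed against lean males (69 to 632), 109 in ob/ob against diet-fed males (17 to 600), 1949 in lean males against lean females (395 to 3593), 706 for the sex difference (226 to 3988), 377, 132 and 176 for pioglitazone in Ay/+, ob/ob and diet-fed mice (90 to 1221, 14 to 699 and 59 to 570), 3 for the difference of the pioglitazone effects (1 to 55), 464 for CL316243 (20 to 3186) and 943 for CL316243 against pioglitazone (390 to 3087). These ranges over all probe sets do not include the fits that leave out 1 array. Such fits gave as few as 1027 calls in ob/ob against lean males and 0 for the difference of the pioglitazone effects. Leaving out a CL316243 array, which leaves 1 treated array, also took both CL316243 comparisons below their ranges. With the replicate number as a block Hsp90b1 was called in ob/ob against Ay/+ females (0.55, adjusted p = 0.0415), and no other call of a member changed. Same-numbered arrays correlated from -0.298 to 0.190, so the numbers do not pair the arrays. The scan days had a consensus correlation of 0.204. The causes of these changes were not tested. Calr, below 23 on 24 of 35 arrays, is limited by its signal.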

Other observations

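Marker genes of other cells and tissues were followed as the mean log2(signal + 23) of each list. The lowest and highest group means were 7.93 in lean females and 10.68 in ob/ob males for 18 macrophage and myeloid genes, and 10.06 in ob/ob males and 11.30 in Ay/+ females for 9 fat cell genes. Plasma and B cell genes (9 measured) ranged from 7.34 to 7.84, T and NK cell genes (13) from 5.55 to 6.22, endothelial genes (10) from 8.28 to 9.35, fibroblast and mesothelial genes (12) from 8.47 to 9.14, and neutrophil and mast cell genes (12) from 6.52 to 7.26. Skeletal muscle genes (12) ranged from 6.24 in lean males to 7.63 in lean females, and genes of ovary and male tract (13) from 5.40 to 6.09. Pancreas genes (8 measured) were highest in untreated Ay/+ females, at 7.33, in Ay/+ females given pioglitazone, at 7.02, and in ob/ob females given CL316243, at 6.99. These are the 3 groups in which Hspa5 was lowest, at 823, 747 and 744. The other groups had pancreas means of 6.38 to 6.71 and Hspa5 means of 1365 or more. Single arrays overlapped, with 6.50 to 7.88 in untreated Ay/+ females and 6.41 to 6.99 in untreated diet-fed males. Of the 8 genes, 3 were called higher in Ay/+ than in lean females and 0 with CL316243 against untreated ob/ob females. Any link of the pancreas genes with Hspa5 was not tested.

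Leptin (Lep) mRNA, the hormone whose protein ob/ob mice lack, averaged 1132 in lean and 3368 in ob/ob females, and 7998 in ob/ob females given CL316243, above all other groups.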
